A study of Mus musculus with 36 samples.

Results

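Normal restricted progenitors (RPs) were compared with normal hematopoietic stem cells (HSCs), transcript by transcript. The comparison used 7 of the 18 RNA libraries in the series: 4 Control RP libraries and 3 Control HSC libraries. They were chosen by name from the deposited count table. No measured value entered this choice, but earlier results of these data were known. The series holds 36 samples in all, 18 of them ATAC-seq samples that were not analysed here. The Control mice were C57BL/6, aged 8 weeks, labelled wild-type, with intact Dnmt3a and Tet2 and the Vav-driven Cre recombinase. Vav-driven Cre is active in blood-forming cells, and every group used here carried it. Where values are set beside other libraries, these come from 4 Tet2KO RP, 4 Tet2KO HSC and 3 Dnmt3aKO HSC libraries of mice of the same strain, age and Cre driver, with Tet2 fl/fl in the Tet2KO and, as the labels write it, Dnmt3a fl/fl or + in the Dnmt3aKO mice. Cells were sorted from pooled marrow of male and female mice, with pool sizes that are not stated alike throughout the labels. Libraries were made with the SMARTer Ultra Low RNA kit, meant for very small amounts of RNA. HSCs were the lineage-negative, cKit+, Sca1+ cells with CD150 and without CD48. RPs for RNA were the cells of the same compartment with CD48 and without CD150.

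HSCs sit at the top of the blood lineage, divide rarely and can rebuild the whole system after transplantation. The CD48+ cells of the same marrow compartment are progenitors that have largely lost long-term self-renewal and divide more often on the way to myeloid and lymphoid cells. CD150 and CD48 are surface proteins of the same SLAM family, and their opposite patterns are what the sort relies on. The files used here do not pair the Ensembl transcript identifiers with genes. The sorted populations were therefore not checked against marker genes, no gene list was applied, and at most 2 transcripts are named per direction.

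The Control HSC libraries held 4949973 to 6453611 counts and the Control RP libraries 3721009 to 7649318. Of 138835 transcripts in the table, 26820 passed the filter on low counts and were tested. Levels are given in CPM, counts per 1000000 of the scaled library size, which is not corrected for transcript length. Over the tested transcripts, the Spearman correlation of counts was 0.836 to 0.863 between RP libraries (6 pairs), 0.771 to 0.825 between HSC libraries (3 pairs) and 0.752 to 0.827 across the cell types (12 pairs). Control HSC replicate 3 was as close to the RP libraries, at 0.792 to 0.827, as to the other HSC libraries, at 0.805 to 0.825. Control HSC replicate 4 held the fewest transcripts and put the most counts into its top transcripts, as given next. Some results are therefore also given without it, and the others include it.

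The 4 Control RP libraries held more different transcripts than the 3 Control HSC libraries. After reduction of each library, by calculation, to the smallest total of 3721009 counts, the expected numbers with at least 1 count were 41794.2, 39880, 40631.7 and 40700 transcripts in the 4 Control RP libraries. They were 33584.1, 37439.5 and 31276 in Control HSC replicates 2, 3 and 4. The groups did not overlap, and the lowest RP library lay above the highest HSC library. The mean was 40751 ± 788 (SD, n = 4) in RPs and 34100 ± 3110 (SD, n = 3) in HSCs, a difference of 6652 (exact two-sided permutation test, p = 0.0571, the smallest that 4 against 3 allows; 0.114 adjusted over 2 tests). Without Control HSC replicate 4 the difference was 5240. In Tet2KO libraries the means were 43421 ± 1240 in RPs and 40309 ± 4640 in HSCs (n = 4 each), the groups overlapped, and the difference was 3112 (exact permutation test, p = 0.229). Without Tet2KO HSC replicate 4 it was 855.7. For transcripts with at least 5 counts at equal depth the Control difference was 2360, and 1406 without Control HSC replicate 4. On this measure the Tet2KO difference was 705.7, and -615.1 without Tet2KO HSC replicate 4. With libraries reduced to 744201 counts the Control difference was 3469, and 2422 without Control HSC replicate 4. The Tet2KO difference was then 1351, and -183 without Tet2KO HSC replicate 4. In bulk samples such as these, fewer cells of a type and less RNA per cell cannot be told apart. The number of transcripts detected can also depend on the amount of RNA that entered each library and on its amplification. Their part in these differences was not tested.

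The share of counts taken by the most abundant transcripts overlapped between the cell types. The 100 most abundant transcripts of each library held 30.46, 30.61, 30.15 and 27.6% of the counts in Control RPs and 28.54, 29.18 and 34.72% in Control HSC replicates 2, 3 and 4. The RP values lay within the range of the HSC values except for RP library d, the lowest of the 7. The difference was -1.108 percentage points (exact two-sided permutation test, p = 0.743, n = 4 and 3), and it changed sign to 0.845 without Control HSC replicate 4. Of the 100 transcripts with the highest mean level in each cell type, 81 were shared. Single RP libraries shared 79 to 88 of their top 100 with each other, HSC libraries 79 to 87, and an RP and an HSC library 69 to 86. Of the top 1000 of each cell type, 843 were shared. The 1000 most abundant transcripts of RPs included 33 that were called higher in RPs and 8 that were called lower, and those of HSCs 7 and 38. Of all tested transcripts with a mean of at least 100 CPM over the 7 libraries, 2.67% were called higher and 2.29% lower. Each list was picked on the mean level of its own cell type, which favours calls in that direction.

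**Figure D1:**
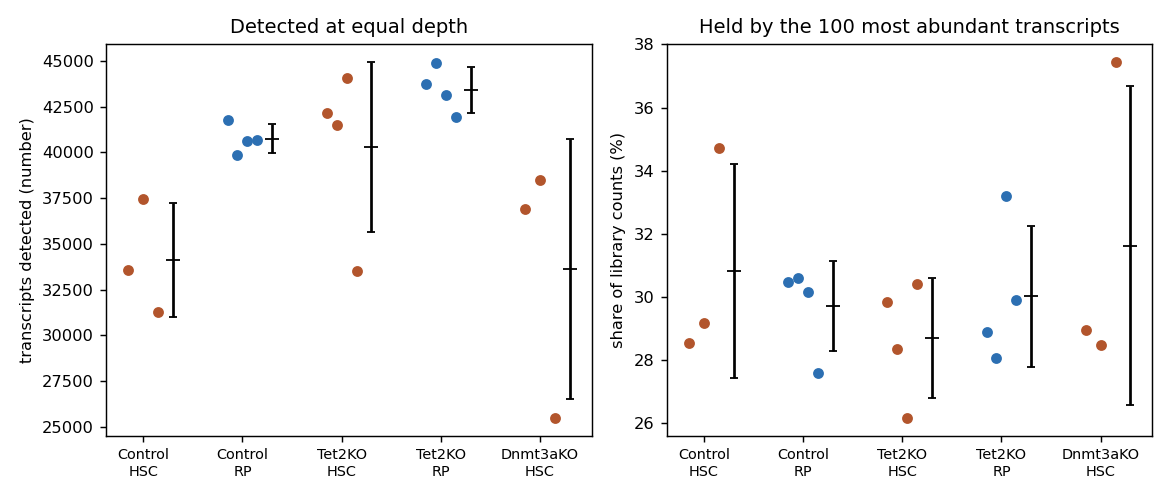
Left, expected number of transcripts with at least 1 count after reduction to 3721009 counts; right, percentage of library counts in the 100 most abundant transcripts. Each point is a library, bars are mean ± SD, and blue is RP and brown HSC; on the left the 4 Control RP points lie above the 3 Control HSC points, and on the right both groups overlap.

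Between the cell types 509 transcripts changed, 1.9% of those tested. In Control RPs 215 transcripts were higher (0.802%) and 294 lower (1.1%) than in Control HSCs (quasi-likelihood test of edgeR, Benjamini-Hochberg adjusted p under 0.05). DESeq2 called 1500, of which 837 were higher and 663 lower, and included all 509. Of the 509, 500 differed at least 2-fold. For a transcript without any count in one cell type, the fold was a lower bound that takes 3 counts as the group's total. On this basis the median difference was 3.16 on the log2 scale for the higher transcripts (quartiles 1.85 and 4.49) and 2.71 for the lower (quartiles 1.83 and 3.84). The medians of the fitted values were 3.41 and 2.71. Over all tested transcripts the median log2 fold change was 0.10, with quartiles of -0.46 and 0.81. The median differed with the mean level over the 7 libraries. It was 1.07 for the 3585 transcripts under 1 CPM and 0.187 at 1 to 5 CPM. At 5 to 20, 20 to 100 and at least 100 CPM it was -0.022, -0.0452 and 0.0197.

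By size, 9 of the 509 differed less than 2-fold, 142 from 2-fold to 4-fold, 223 from 4-fold to 16-fold and 135 at least 16-fold. The last class held 72 higher and 63 lower transcripts. At least 64-fold differences were found for 17 higher and 15 lower transcripts. The smallest called difference was 0.82 on the log2 scale among the higher and 0.85 among the lower transcripts. A large fold alone did not make a call. Of all tested transcripts 3535 (13.2%) differed at least 4-fold, and 3177 of these were not called. Of the 3177, 2610 had a mean under 5 CPM in both cell types, and in 1812 the libraries of the cell types overlapped.

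The libraries of the 2 cell types did not overlap in 213 of the 215 higher and 287 of the 294 lower transcripts. Over all tested transcripts, 9.88% lay higher in every RP library than in every HSC library and 6.0% lower, 15.9% together. In numbers, 2651 lay higher and 1609 lower without overlap, while the calls were 215 and 294. At low levels most of the non-overlapping transcripts were higher in RPs. By mean level over the 7 libraries, 379 transcripts under 1 CPM and 1184 from 1 to 5 CPM were higher without overlap, against 63 and 446 lower. From 20 to 100 CPM the numbers were 364 higher and 411 lower, and at 100 CPM or more 184 and 181.

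The share called grew with the level. It was 0.363% of 3585 transcripts under 1 CPM, 0.949% of 11383 from 1 to 5 CPM, 2.34% of 6167 from 5 to 20 CPM, 3.98% of 3848 from 20 to 100 CPM and 4.95% of 1837 at 100 CPM or more. Between 5 and 20 CPM, 104 transcripts were lower in RPs and 40 higher, and between 20 and 100 CPM 98 lower and 55 higher. At 100 CPM or more the numbers were 42 lower and 49 higher. The median size of the called differences was 3.17 on the log2 scale for the 13 called under 1 CPM and 4.59 at 1 to 5 CPM. At 100 CPM or more it was 1.54. The smallest called difference was 2.9 under 1 CPM, 2.27 at 1 to 5 CPM and 0.82 at 100 CPM or more.

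The spread between libraries was wider in stem cells at each level. The median coefficient of variation was 55.9% in RPs and 72.2% in HSCs for transcripts of 1 to 5 CPM in that cell type. It was 34% and 45.8% from 5 to 20 CPM, 22.7% and 29.9% from 20 to 100 CPM, and 16.5% and 21.9% at 100 CPM or more. These values come from 4 RP and 3 HSC libraries, and the difference between the cell types was not tested. They include Control HSC replicate 4 and were not computed without it.

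**Figure D2:**
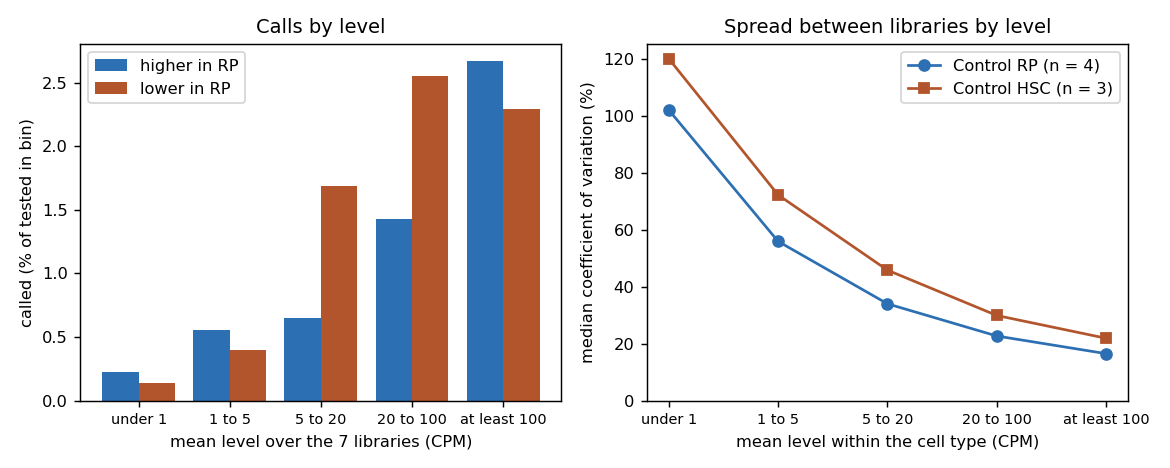
Left, percentage of tested transcripts called higher (blue) or lower (brown) in Control RPs, by mean level over the 7 libraries in CPM; right, median coefficient of variation between libraries by mean level within the cell type. The share called reaches 4.95% in both directions together at 100 CPM or more, and the HSC curve lies above the RP curve in each of the 5 level classes.

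Both undetected and well-expressed transcripts were found in the cell type with the lower level. Having no count means not detected at this depth. Among the 215 higher transcripts, 48 had no count in Control HSCs and a further 42 had a mean under 1 CPM there. Another 29 lay at 1 to 5 CPM and 96 at 5 CPM or more in HSCs. Among the 294 lower transcripts, 11 had no count in Control RPs, 56 lay under 1 CPM, 72 at 1 to 5 CPM and 155 at 5 CPM or more. The median level in the lower cell type was 2.76 CPM for the higher and 5.7 CPM for the lower transcripts. In the cell type with the higher level, the medians were 29.8 CPM in RPs and 34.4 CPM in HSCs. A mean of at least 1000 CPM was reached by 6 of the higher transcripts in RPs and by 2 of the lower transcripts in HSCs.

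**Figure D3:**
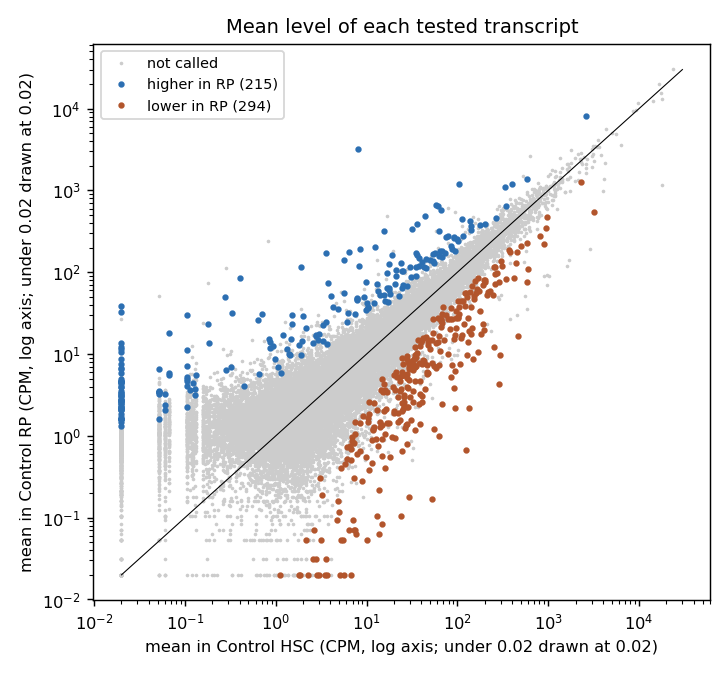
Mean level of each tested transcript in Control HSCs (horizontal) and Control RPs (vertical), both in CPM on log axes, with transcripts at 0 drawn at 0.02. The 215 called higher in RPs are blue, the 294 called lower are brown and the line marks equal levels; the column of blue points at the left edge holds the 48 with no count in HSCs, and the row of brown points at the bottom the 11 with no count in RPs.

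The changed transcripts made up a small part of each library. The 215 higher transcripts held 2.488 to 3.887% of the counts in the 4 RP libraries and 0.7212 to 0.8507% in the 3 HSC libraries. The 294 lower transcripts held 0.7303 to 1.028% in RP libraries and 2.79 to 3.164% in HSC libraries. RP library d stood nearest to HSCs on both measures, with 2.488% in the higher and 1.028% in the lower transcripts. These transcripts were chosen in the same libraries, so the values are a description. In the Tet2KO libraries, which are in neither group but entered the same filter and estimate of the spread, the higher transcripts held 2.763 to 3.779% in Tet2KO RPs and 0.866 to 0.9697% in Tet2KO HSCs. The lower transcripts held 0.8856 to 1.057% in Tet2KO RPs and 2.604 to 2.907% in Tet2KO HSCs.

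The transcript with the smallest p among those higher in RPs, ENSMUST00000194893.1, was at 563.5, 517.8, 581.2 and 612.8 CPM in the 4 Control RP libraries and at 68.29, 61.03 and 70.75 CPM in Control HSC replicates 2, 3 and 4. Each group was tight, and the groups lay far apart. The means were 568.8 ± 39.7 CPM (SD, n = 4) and 66.69 ± 5.05 CPM (n = 3) (log2 fold change 3.09, SE 0.34; adjusted p = 4.6e-05, edgeR). In the other libraries Tet2KO RPs held 243 to 588.1 CPM, Tet2KO HSCs 28.2 to 72.2 CPM and Dnmt3aKO HSCs 79.95 to 125.5 CPM. Each RP library, of Control and Tet2KO mice, thus lay above each HSC library of the 3 genotypes. Dnmt3aKO RPs were not analysed here.

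Among called transcripts without overlap, the largest gain in level was that of ENSMUST00000165117.7, at 7768, 7710, 10500 and 6511 CPM in Control RPs and 1535, 2663 and 3526 CPM in Control HSC replicates 2, 3 and 4. The groups did not overlap, and the HSC libraries differed more than 2-fold among themselves. The means were 8123 ± 1690 CPM (SD, n = 4) and 2575 ± 998 CPM (n = 3), a difference of 5548 CPM (log2 fold change 1.66, SE 0.38; edgeR's adjusted p = 0.0263). The call was lost in 5 of the 7 fits that left out 1 Control library, with log2 fold changes of 1.39 without HSC replicate 2 (adjusted p = 0.138, edgeR), 1.63 without HSC replicate 3 (0.0971), and 1.68, 1.68 and 1.51 without RP libraries a, b and c (0.0565, 0.0536 and 0.0834). In the Tet2KO libraries the RP level was 7168 ± 2010 CPM and the HSC level 2253 ± 847 CPM (n = 4 each), and the change was called there too (log2 fold change 1.67, SE 0.34; edgeR's adjusted p = 0.0124).

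Among transcripts lower in RPs, ENSMUST00000131174.1 had the smallest p of all transcripts tested. It was at 89.9, 106.7 and 83.14 CPM in Control HSC replicates 2, 3 and 4 and at 2.958, 1.709, 1.48 and 2.528 CPM in the 4 Control RP libraries. It was near its HSC level in no RP library, yet had counts in each. The means were 93.25 ± 12.1 CPM (SD, n = 3) and 2.169 ± 0.692 CPM (n = 4) (log2 fold change -5.39, SE 0.36; adjusted p = 1.62e-07, edgeR). Tet2KO RPs held 3.168 to 7.585 CPM, Tet2KO HSCs 63.05 to 96.29 CPM and Dnmt3aKO HSCs 62.55 to 118.6 CPM.

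The largest loss in level among called transcripts without overlap was that of ENSMUST00000060792.5, at 3024, 3536 and 2908 CPM in Control HSC replicates 2, 3 and 4 and at 472.9, 467.9, 367.8 and 895.9 CPM in Control RPs. RP library d was the highest of the RP libraries and still below each HSC library. The means were 3156 ± 334 CPM (SD, n = 3) and 551.1 ± 235 CPM (n = 4) (log2 fold change -2.52, SE 0.36; adjusted p = 4.4e-04, edgeR). The HSC level varied between genotypes, at 1767 ± 501 CPM in Tet2KO HSCs (n = 4) and 4804 ± 3030 CPM in Dnmt3aKO HSCs (n = 3), where replicate 4 was at 8277 CPM. Tet2KO RPs were at 515.3 ± 105 CPM (n = 4).

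**Figure D4:**
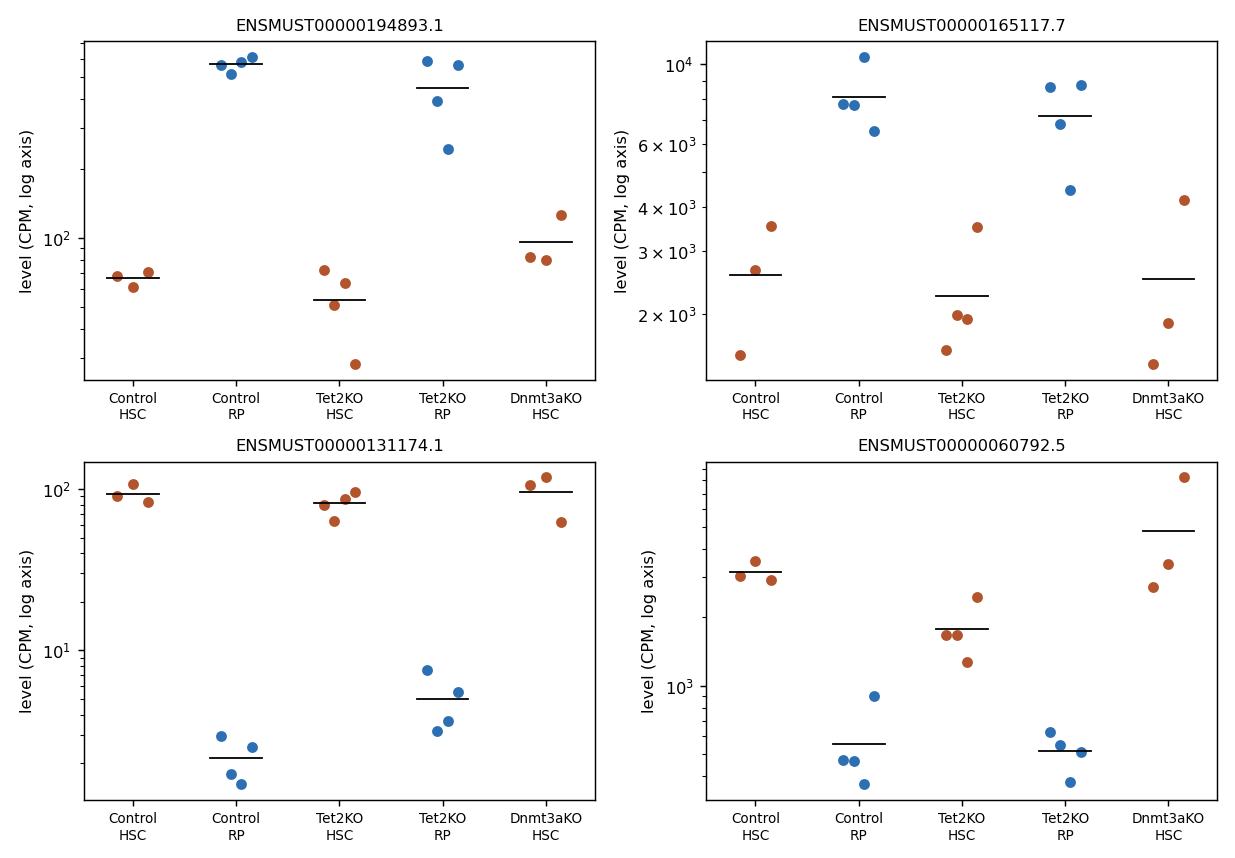
Level in CPM on a log axis of the 4 named transcripts in each of the 18 RNA libraries, with a line at each group's mean; RP libraries are blue and HSC libraries brown. In each panel the 4 Control RP points and the 3 Control HSC points do not overlap.

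On and off patterns were then counted over the whole table, without the filter. A transcript was taken as on in a cell type when each of its libraries had at least 1 count and the mean was at least 1 CPM, and as off when no library had a count. In this sense 293 transcripts were on in Control RPs and off in Control HSCs, and 34 were on in HSCs and off in RPs. These were 1.28% of the 22912 transcripts on in RPs and 0.173% of the 19683 on in HSCs. The sets differ in what they ask, since 3 HSC libraries or 4 RP libraries must be without a count. With 3 libraries on each side, leaving out each RP library in turn, the numbers were 333 to 395 and 48 to 74. Leaving out HSC replicate 2, 3 or 4 gave 478, 865 or 495 transcripts on in RPs, and 61, 53 or 57 on in HSCs. Without RP libraries a, c and d, 61, 56 and 74 were on in HSCs.

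Most transcripts with an on and off pattern were scarce. Those on in RPs had a median level of 1.61 CPM and reached 38.95 CPM, and 16 of the 293 had 5 CPM or more. Those on in HSCs had a median of 1.85 CPM and reached 6.717 CPM, with 3 of 34 at 5 CPM or more. Against the floor of 3 counts over the other group, which is 0.178 CPM in HSCs and 0.144 CPM in RPs, the median difference was at least 9.07-fold and at least 12.9-fold. At least 16-fold differences were found for 43 and 11 transcripts. Of the 293, 227 were tested and 47 were called higher in RPs. Of the 34, 22 were tested and 10 were called lower. Of all tested transcripts, 0.802% were called higher and 1.1% lower. Both sets were chosen on counts of the same libraries that the calls use, so these numbers are a description. The called ones had median levels of 3.18 CPM in RPs and 3.16 CPM in HSCs.

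Absence from single stem-cell libraries was common. Of the 22912 transcripts on in RPs, 9.3% had no count in Control HSC replicate 2, 4.2% in replicate 3 and 10.4% in replicate 4. Of the 19683 on in HSCs, 2.25, 3.39, 2.05 and 1.62% had no count in RP libraries a, b, c and d. The order of the HSC libraries was the reverse of the order of their transcript numbers at equal depth. The part that the lower number of transcripts in HSC libraries had in the on and off counts was not tested.

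Few on and off patterns held in the Tet2KO libraries, where the off condition in HSCs was stricter. It asks for no count in 4 Tet2KO HSC libraries of 5486287 to 9366421 counts. In Control it asks this of 3 HSC libraries of 4949973 to 6453611 counts. The part of this difference in the numbers below was not tested. Of the 293 transcripts on in Control RPs, 186 had a count in every Tet2KO RP library, but 16 had none in Tet2KO HSCs, and 7 met both conditions. Their median level in Tet2KO RPs was 1.83 CPM, that in Tet2KO HSCs was 1.03 CPM, and 210 of 293 were higher in Tet2KO RPs. Of all tested transcripts, 51.0% had a log2 fold change above 0 in the Tet2KO libraries. In Dnmt3aKO HSCs 66 of the 293 had no count, and the median was 0.283 CPM. Of the 34 transcripts on in Control HSCs, 16 had a count in every Tet2KO HSC library, 5 had none in Tet2KO RPs, and 3 met both conditions. In Tet2KO HSCs their median level was 0.852 CPM, and in Tet2KO RPs it was 0.244 CPM. Of the 34, 26 were higher in Tet2KO HSCs, while 49.0% of all tested transcripts had a log2 fold change below 0 there. In Dnmt3aKO HSCs 1 of the 34 had no count, and the median was 1.29 CPM. Counted from the start in Tet2KO libraries, 49 of 24248 transcripts on in RPs (0.202%) were off in HSCs, and 22 of 21688 on in HSCs (0.101%) were off in RPs.

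The 509 changed transcripts were next read in Tet2KO RPs and Tet2KO HSCs. The 2 contrasts have no library in common, but all 18 libraries entered the filter and the shared estimate of the spread that chose the 509. With 1 Tet2KO library left out, the Control calls numbered 432 (without RP library b) to 588 (without HSC replicate 4). Of the 215 transcripts higher in Control RPs, 194 (90.2%) had a log2 fold change above 0 there, against 51.0% of all tested transcripts. Of the 294 lower ones, 285 (96.9%) were below 0, against 49.0%. In the same direction 93 of the 215 (43.3%) were called higher, against 0.776% of all tested, and 174 of the 294 (59.2%) lower, against 1.03%. None was called in the opposite direction. The Tet2KO libraries did not overlap in the same direction for 126 of the higher transcripts (58.6%, against 4.54% of all tested) and for 227 of the lower (77.2%, against 4.08%).

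The reading was repeated, as an alternative chosen after seeing the data, with separate fits that have no library and no estimate of the spread in common. The 7 Control libraries alone gave 284 transcripts higher and 324 lower in RPs. Of the 258 higher ones that were also tested in the 8 Tet2KO libraries alone, 235 (91.1%) had a log2 fold change above 0 there, against 51.5% of all tested, and 86 (33.3%) were called higher, against 0.996%. Of the 305 lower ones tested there, 298 (97.7%) were below 0, against 48.5%, and 139 (45.6%) were called lower, against 1.05%. The median log2 fold change was 2.91 in the Control fit and 1.34 in the Tet2KO fit for the higher transcripts, and -2.30 and -1.65 for the lower. In these fits, too, the number called in the opposite direction was 0.

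Differences of the 509 were smaller in the Tet2KO contrast, which was not the contrast they were chosen on. With the floor applied, the median log2 fold change of the higher transcripts was 3.16 in Control and 1.47 in Tet2KO, and that of the lower transcripts -2.71 and -1.91. A smaller difference than in Control was seen for 169 of 215 and 242 of 294 transcripts. The transcripts were chosen on their Control values, and the part of that choice in the smaller differences was not tested.

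The share of changes that were called again in Tet2KO libraries grew with the level of the transcript. Of the 55 transcripts called higher with a mean under 5 CPM in Control RPs, 37 had no count in Control HSCs. Their median log2 fold change went from 4.23 in Control to 0.66 in Tet2KO, 40 of 55 kept the sign, and 7 (12.7%) were called. Of the 65 called higher at 100 CPM or more, 64 kept the sign, 43 (66.2%) were called, and the median went from 1.73 to 1.53. Between these, 17 of 43 (39.5%) were called at 5 to 20 CPM and 26 of 52 (50%) at 20 to 100 CPM.

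Among the lower transcripts the shares called in Tet2KO were 15.8% of 19 under 5 CPM in Control HSCs, 47.8% of 69 at 5 to 20 CPM, 57.3% of 131 at 20 to 100 CPM and 84% of 75 at 100 CPM or more. For the last class the median log2 fold change was -1.80 in Control and -1.48 in Tet2KO, and 74 of 75 kept the sign. Over all tested transcripts the share called in Tet2KO also grew with level, from 0.159 to 3.65% higher with the level in Control RPs and from 0.0864 to 4.95% lower with the level in Control HSCs. By size in Control, the shares called in Tet2KO were 47.3, 40.5 and 44.4% of the higher transcripts for 2-fold to 4-fold, 4-fold to 16-fold and at least 16-fold differences. For the lower transcripts they were 64.4, 56.8 and 57.1%.

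**Figure D5:**
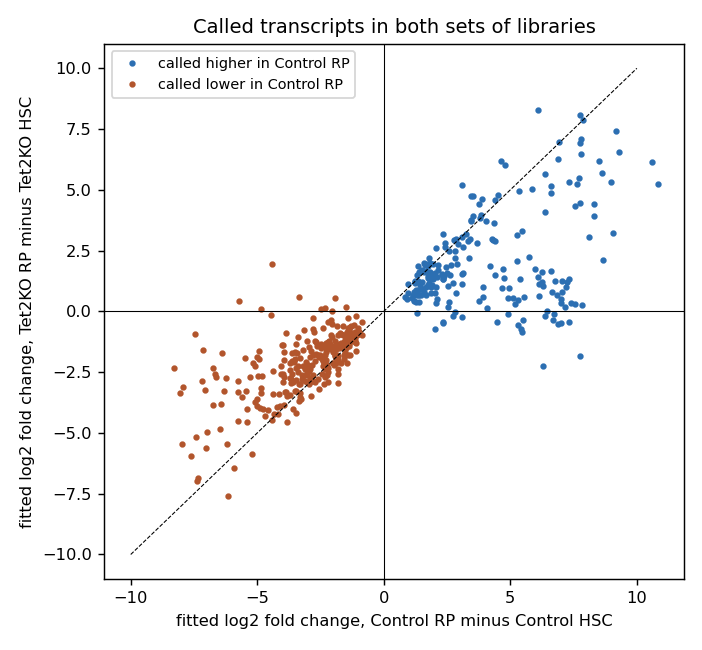
Fitted log2 fold change of RPs against HSCs in Control libraries (horizontal) and Tet2KO libraries (vertical) for the 509 called transcripts; the dashed line marks equal values. Of the blue points, called higher in Control RPs, 194 of 215 lie above 0 on the vertical axis, and of the brown points, called lower, 285 of 294 lie below 0.

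The number of changed transcripts differed between fits that left out libraries. Each such fit also had fewer libraries to estimate from. Without 1 Control HSC library, 29790 to 30019 transcripts passed the filter, against 26820. The part of either in the numbers below was not tested. The number called was 264 without Control HSC replicate 2 (69 higher and 195 lower), of which 248 were among the 509, and 334 without HSC replicate 4 (293 among the 509). It was 310, 319 and 315 without RP libraries a, b and c. Without all 3 HSC libraries numbered 4 it was 716, with 353 higher and 363 lower and 421 of the 509 kept. In each of the 7 fits that left out 1 Control library, 202 transcripts kept their call, 53 higher and 149 lower. Their median difference was 3.09 on the log2 scale for the higher and 3.02 for the lower transcripts, and their median level in the higher cell type was 59 CPM in RPs and 50.2 CPM in HSCs. In the Tet2KO libraries 42 of the 53 were called higher and 121 of the 149 lower. Of all tested transcripts, 0.776% were called higher there and 1.03% lower. Among all tested transcripts at 20 to 100 CPM in Control RPs, 1.8% were called higher there. At 20 to 100 CPM in Control HSCs, 2.78% were called lower.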

How the data were processed

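The deposited table holds raw read counts per Ensembl transcript, which the authors made, by the table's name, over exons of GENCODE models. Per the submitters' processing notes, tools included HTSeq 0.8.0, STAR 2.0.4 and featureCounts, and the build was mm10, without roles. For strand and shared exons the setting is not given in the sources used here, so counts of isoforms, near-identical copies and overlapping genes are uncertain. Of 36 columns, 18 were used and 18 matched no sample. HSC columns carry no cell type and were taken as HSCs because RP columns carry the RP name. RP column numbers differ from the titles, so RP libraries are lettered in column order and pair with nothing. The replicates are pools, and p-values measure the spread between pools.

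Transcripts were kept with filterByExpr by group (minimum count 10, minimum total 15), leaving 26820 with 98.92% of counts. All 18 libraries entered edgeR 4.0.16's quasi-likelihood fit (R 4.3.3, TMM factors, group as the only term), with Benjamini-Hochberg adjustment over all transcripts. DESeq2 1.42.0, other scalings and filters, the groups compared alone and left-out libraries were tried. Tests planned per gene were run on transcripts. The named transcripts were, per direction, the one with the smallest p and the one with the largest difference in mean CPM, among called transcripts with no overlap and at least 5 CPM in the higher group. The members and rules were chosen with earlier results of these data known. Floors cover counting error alone, as the labels name no molecular identifiers. The chi-square per degree of freedom between libraries of a group was 8.55 or more, and each was counted as a sample.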

Additional observations from a re-analysis of the deposited data

Results flagged for a closer look

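Control RP library d had 27.6% of its counts in its 100 most abundant transcripts, apart from the other 3 RP libraries at 30.15 to 30.61%. It was the 1 value that stood apart in 24 combinations of a measure and a group of 4 libraries. These share libraries and are not independent; chance sets apart about 1 in 20. It was also the RP library with the most counts (7649318), and leaving it out gave 493 changed transcripts, with 413 of the 509 kept.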

How the results depend on the processing

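The 509 calls became 542 with RLE factors, 504 with upper-quartile factors, 460 with a filter of at least 1 CPM in at least 3 libraries and 608 in a fit of the 7 Control libraries alone. They became 1500 with DESeq2 (837 higher and 663 lower) and 1355 without a filter (746 and 609), and ranged from 264 to 493 when 1 Control library was left out. Of the calls, 358 were at least 4-fold, against 947 with DESeq2, 1093 without a filter and 204 to 344 with 1 Control library left out (204, 238 and 234 without HSC replicate 2 and RP libraries a and c). The calls shared with Tet2KO cells numbered 267, against 574 with DESeq2, 479 without a filter and 184 to 258 with 1 Control library left out. The difference in transcripts detected ranged from 5240 to 8321 with 1 Control library left out. The difference in the share of the top 100 transcripts ranged from -2.245 to 0.845 with 1 Control library left out. It was 1.325 in the Tet2KO libraries and 1.903 there without HSC replicate 4, 2 alternatives chosen after seeing the data. The cause was not tested for any of these. The 293 transcripts on in RPs became 67 with at least 5 counts in each library, 734 with no minimum mean, 502 with 1 count allowed in HSCs and 333 to 865 with 1 Control library left out. The 34 on in HSCs became 14, 126, 63 and 48 to 74 in turn, as fewer or more transcripts met the conditions. No change of scaling moved the median log2 fold change of all transcripts by over 0.1, with values of 0.06 (RLE factors) and 0.16 (upper-quartile factors).

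Column numbers 2 and 3 occur in both Control groups, but nothing in the labels says that a number marks a shared litter or day. Across 18594 transcripts, the differences between both numbers in HSCs and in RPs had a correlation of 0.0148. A fit of these 4 libraries with the number as a replicate block called 397 transcripts (224 higher and 173 lower), and without the block, chosen after seeing the data, 196, with 166 at least 4-fold. Of the 509, 219 and 134 were called there. With only 4 libraries these fits have little to estimate the spread from, and the block term takes up part of that. The part of depth in the larger smallest called difference at 1 to 5 CPM was not tested.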
